A study of Caenorhabditis elegans with 6 samples.

Results

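Sphingolipids are membrane lipids built on a long-chain amino alcohol, and 10 Caenorhabditis elegans genes of their synthesis and breakdown were followed here by symbol among the 46748 genes of the count table. They encode the serine palmitoyltransferase subunits (sptl-1, sptl-2, sptl-3), the ceramide synthases (hyl-1, hyl-2, lagr-1), the acid sphingomyelinases (asm-1, asm-2, asm-3) and an acid ceramidase (asah-1). All 10 had a row in the table and all 10 passed the filter on low counts. RNA came from whole hermaphrodites (the labels give the tissue as "all") of the wild-type strain N2, aged 5 days; another label counts the 5 days from the L4 larval stage. L4440 is a plasmid of feeding RNAi, in which worms eat bacteria that make double-stranded RNA matching a chosen gene. The 3 libraries labelled T25B9.1 are, by that label, from animals under RNAi against this gene, and the 3 libraries labelled L4440 carry the name of that plasmid without an insert. Both groups share strain, sex, age and genotype. Nothing in the labels says that libraries came from separate cultures, or how many animals each pooled; the p-values below therefore rest on a spread among libraries that could be technical.

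The pathway begins when serine palmitoyltransferase joins serine to a fatty acyl-CoA. In C. elegans the chain is an iso-branched one, so the sphingoid base depends on branched fatty acids made by dedicated elongases. Ceramide synthases then add a second fatty acid, and ceramide receives a head group to become sphingomyelin or glucosylceramide. In the opposite direction, acid sphingomyelinases release ceramide from sphingomyelin in lysosomes or outside the cell, and acid ceramidase splits ceramide into a fatty acid and a sphingoid base. T25B9.1 is predicted to encode glycine C-acetyltransferase, which acts in the breakdown of threonine. By protein family it is a relative of serine palmitoyltransferase, since both are alpha-oxoamine synthases.

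The targeted gene itself was not lower in the libraries that name it. T25B9.1 had 219, 317 and 430 counts in the T25B9.1-labelled libraries, against 90, 92 and 132 in the L4440-labelled ones, and the groups did not overlap (log2 fold change 1.73, SE 0.245, edgeR adjusted p = 0.00483). From these counts, an exchange of the labels between the groups and a rise in counts under RNAi cannot be told apart. Nor do the counts separate transcripts of the gene from double-stranded RNA fed against it, and this was not tested. An exchange would turn the direction of every call with respect to treatment. The label is therefore used here as a name, and higher and lower always describe the T25B9.1-labelled libraries as set against the L4440-labelled ones. Libraries held 25480225 to 38621940 counts. Levels are given as CPM, the usual unit of counts relative to the library total, with the totals adjusted by TMM factors.

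Among the members that passed, the 3 higher were breakdown genes and the 2 lower were synthesis genes. This split did not extend to the 10 further breakdown genes described below, of which 0 were called higher and 1, gba-4, lower. Of the 2 synthesis genes, sptl-3 passed in only 6 of 13 alternative settings. The acid sphingomyelinase genes asm-3 and asm-2 and the acid ceramidase gene asah-1 were higher in the T25B9.1-labelled libraries, and the serine palmitoyltransferase genes sptl-2 and sptl-3 were lower. Thus 3 of 10 members were called higher and 2 lower at an edgeR adjusted p under 0.05, where 1.13% and 2.29% of the 13494 genes tested were called higher and lower. For 7 of the 10 the library groups stood apart without overlap, against 17.9% of all genes tested. The median log2 fold change of the 10 was 0.01, as was that of all genes tested (0.01), since the members moved in both directions.

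**Figure D1:**
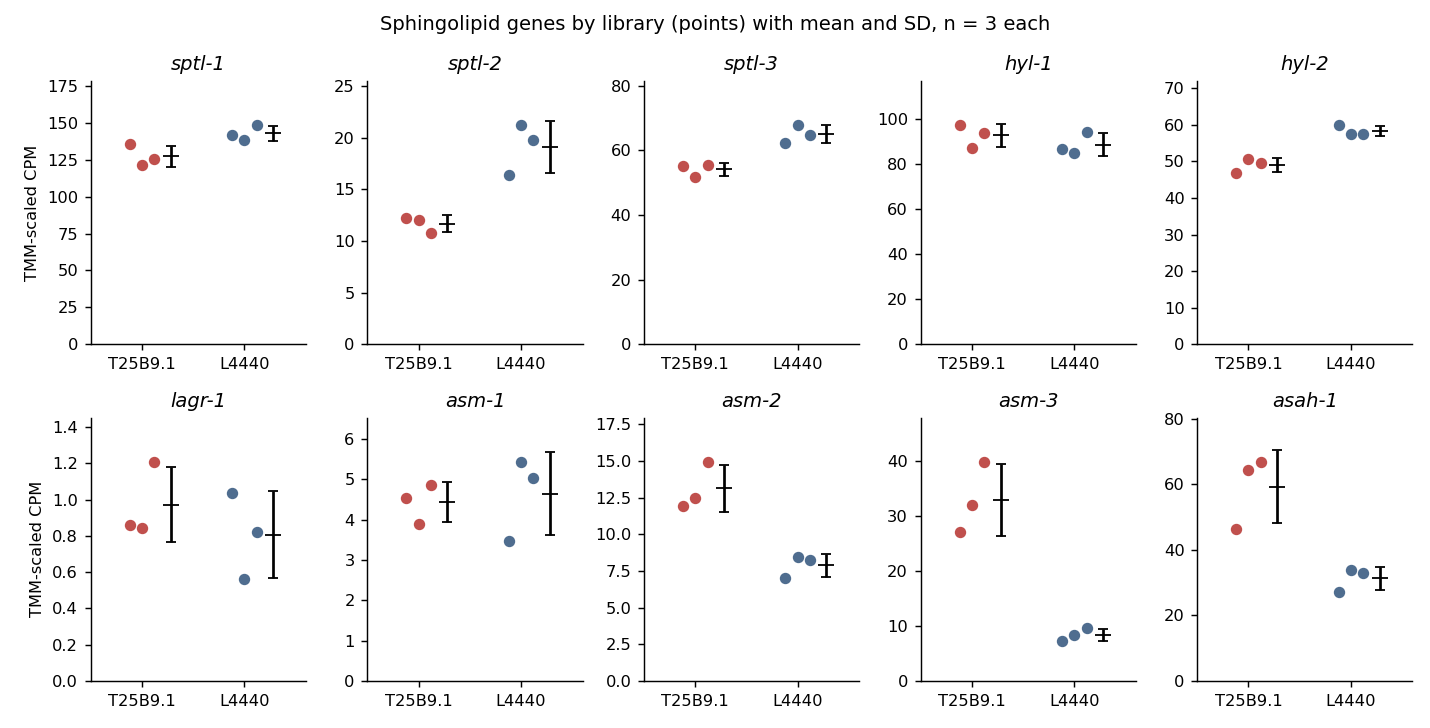
Each panel shows 1 gene, with TMM-scaled CPM on a linear axis from 0. Points are the 3 libraries labelled T25B9.1 (left) and the 3 labelled L4440 (right), with the mean and SD beside them; asm-3 lies at 27.0 to 39.8 CPM on the left and at 7.28 to 9.53 on the right.

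Serine palmitoyltransferase, the enzyme that starts the pathway, needs a pair of different subunits, of which sptl-1 encodes one kind and sptl-2 and sptl-3 are alternatives for the other. The gene sptl-2 (WBGene00018398, chromosome V at 8017207 to 8021715, plus strand, build WBcel235) had 12.2, 12.1 and 10.7 CPM in the T25B9.1-labelled libraries, against 16.4, 21.3 and 19.8 CPM in the L4440-labelled ones. Every T25B9.1-labelled library lay below every L4440-labelled one. The means were 11.7 ± 0.811 CPM in the T25B9.1-labelled libraries and 19.1 ± 2.52 CPM in the L4440-labelled ones (SD, n = 3 each), so the log2 fold change was -0.71 (SE 0.113; adjusted p = 0.00544 by edgeR). This fall passed under all 13 alternative settings tried, with log2 fold changes of -0.83 to -0.65.

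The related gene sptl-3 (WBGene00011932, chromosome V at 13893325 to 13896415, plus strand) fell by less. It had 55.1, 51.9 and 55.5 CPM in the T25B9.1-labelled libraries, against 62.4, 67.9 and 64.8 CPM in the L4440-labelled ones, again with no overlap. Its log2 fold change was -0.26 (SE 0.0626, edgeR adjusted p = 0.0480), just inside the threshold. It did not pass in 7 of 13 alternatives, with adjusted p-values of 0.142, 0.163 and 0.122 without T25B9.1 replicate 1, 2 and 3, of 0.124 and 0.154 without L4440 replicate 2 and 3, and of 0.0626 by limma-voom and 0.0699 with library numbers as a block. The third subunit gene, sptl-1 (WBGene00016020, chromosome II at 51652 to 57570, plus strand), had 135, 122 and 125 CPM in the T25B9.1-labelled libraries, against 142, 138 and 149 CPM in the L4440-labelled ones. These groups stood apart without overlap, but the log2 fold change of -0.16 (95% interval -0.31 to -0.02) did not pass over all genes (edgeR adjusted p = 0.283).

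Ceramide synthases differ in the length of the fatty acid they attach; in C. elegans hyl-1 and hyl-2 are known to favour different chain lengths, and hyl-2 is known for its part in survival without oxygen. None of the 3 passed. The gene hyl-2 (WBGene00002044, chromosome X at 4696754 to 4699461, minus strand) had 46.8, 50.7 and 49.6 CPM in the T25B9.1-labelled libraries, against 60.0, 57.4 and 57.6 CPM in the L4440-labelled ones. The groups did not overlap, and the log2 fold change of -0.25 (95% interval -0.39 to -0.11) lay just outside the threshold (edgeR adjusted p = 0.0579). It passed with no filter on low counts (edgeR adjusted p = 0.0450), by DESeq2 (0.0457) and when only genes averaging 50 counts or more were kept (0.0493), and not in the other 10 alternatives.

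The levels of hyl-1 (WBGene00002043, chromosome IV at 8539123 to 8544412, plus strand) overlapped between groups. They were 97.3, 87.3 and 93.6 CPM in the T25B9.1-labelled libraries, against 86.7, 84.8 and 94.3 CPM in the L4440-labelled ones, a log2 fold change of 0.07 (95% interval -0.08 to 0.21, edgeR adjusted p = 0.791). The interval leaves room for a change of up to 0.21 on the log2 scale. The gene lagr-1 (WBGene00006505, chromosome I at 13724577 to 13732046, minus strand) was near the limit of counting. It had 28, 21 and 43 counts in the T25B9.1-labelled libraries, against 36, 14 and 33 counts in the L4440-labelled ones, so the groups overlapped. Its log2 fold change of 0.25 had a 95% interval from -0.33 to 0.84 (edgeR adjusted p = 0.795). For the lowest library, L4440 replicate 2, the exact Poisson interval ran from 0.306 to 0.940 CPM, which covers counting error only.

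The largest change of any member was in asm-3 (WBGene00000213, chromosome IV at 520214 to 523809, minus strand), an acid sphingomyelinase gene whose loss is known in C. elegans to extend lifespan through insulin signalling. It had 27.0, 31.9 and 39.8 CPM in the T25B9.1-labelled libraries, against 7.28, 8.33 and 9.53 CPM in the L4440-labelled ones. The lowest T25B9.1-labelled library was far above the highest L4440-labelled one, and the counting intervals of single libraries began at 25.2 CPM under the T25B9.1 label and ended at or below 10.5 CPM under the L4440 label. The difference was 3.92-fold (log2 fold change 1.97, SE 0.154, edgeR adjusted p = 0.000192). By fold change asm-3 ranked 16 from the top of the 13494 genes tested. It passed under all 13 alternatives, with log2 fold changes of 1.81 to 2.10.

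The second acid sphingomyelinase gene to rise was asm-2 (WBGene00000212, chromosome X at 11321079 to 11324251, minus strand). It had 12.0, 12.5 and 15.0 CPM in the T25B9.1-labelled libraries, against 7.0, 8.45 and 8.26 CPM in the L4440-labelled ones. The groups did not overlap, and the log2 fold change was 0.74 (SE 0.122, edgeR adjusted p = 0.00703), or 1.67-fold, with a range of 0.63 to 0.80 over the 13 alternatives, all of which passed.

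By contrast asm-1 (WBGene00000211, chromosome II at 6910072 to 6912659, plus strand) overlapped fully between groups. It had 4.55, 3.89 and 4.86 CPM in the T25B9.1-labelled libraries, against 3.48, 5.44 and 5.03 CPM in the L4440-labelled ones, a log2 fold change of -0.06 (95% interval -0.44 to 0.33, edgeR adjusted p = 0.946). Of its exons, 120 bases (6.70%) lie within exons of cyn-10, a cyclophilin gene on the other strand with 1505 to 2513 counts per library and a log2 fold change of 0.00 (SE 0.0564). The library kit does not mark strand, so reads of that stretch cannot be assigned between cyn-10 and asm-1. The model of asm-3 shares 9 exon bases with the non-coding gene W03G1.10, which had 0 counts in all 6 libraries. The model of sptl-1 overlaps that of tre-5, a trehalase gene, by 2308 bases, with no shared exon base (tre-5 log2 fold change 0.29, edgeR adjusted p = 0.582). The model of lagr-1 overlaps the non-coding genes Y47G6A.34 and Y6B3B.15, also with no shared exon base and with 0 counts for both. No other overlap was annotated for the 10 members.

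Acid ceramidase, which takes apart the ceramide that sphingomyelinases release, is encoded by asah-1 (WBGene00010769, chromosome I at 12505114 to 12507569, plus strand). It had 46.4, 64.2 and 66.9 CPM in the T25B9.1-labelled libraries, against 27.2, 33.8 and 32.8 CPM in the L4440-labelled ones, with no overlap. The means were 59.2 ± 11.1 CPM in the T25B9.1-labelled libraries and 31.3 ± 3.59 CPM in the L4440-labelled ones (SD, n = 3 each), a 1.89-fold difference (log2 fold change 0.92, SE 0.140, edgeR adjusted p = 0.00739). Without L4440 replicate 2 the log2 fold change was 0.96 and the edgeR adjusted p 0.0620; the other 12 alternatives passed.

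Genes of one family were then compared within each library, where library size cancels. The count of asm-3 was 5.93, 8.20 and 8.19 times that of asm-1 in the T25B9.1-labelled libraries, against 2.09, 1.53 and 1.90 times in the L4440-labelled ones. It was 2.25, 2.56 and 2.66 times that of asm-2 in the T25B9.1-labelled libraries, against 1.04, 0.986 and 1.15 times in the L4440-labelled ones. On the log2 scale the group means of these ratios differed by 2.01 and 1.23, and for both ratios every T25B9.1-labelled library lay above every L4440-labelled one. The ratio of sptl-1 to sptl-2 was likewise higher without overlap, at 11.1, 10.1 and 11.7 in the T25B9.1-labelled libraries and 8.67, 6.51 and 7.49 in the L4440-labelled ones, and so was that of hyl-1 to hyl-2, at 2.08, 1.72 and 1.89 in the T25B9.1-labelled libraries and 1.45, 1.48 and 1.64 in the L4440-labelled ones. For each of these 4 ratios the two-sided exact permutation p was 0.1, the smallest that 3 against 3 libraries allow, and 0.125 after adjustment over the 5 ratios compared, so no ratio could pass a threshold of 0.05. The ratio of sptl-1 to sptl-3 overlapped between groups (exact permutation p = 0.3).

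Levels of different genes were compared per kilobase of annotated exon. In the T25B9.1-labelled libraries asm-3 made up 61.8%, 65.9% and 66.6% of the acid sphingomyelinase signal, against 40.6%, 37.0% and 41.3% in the L4440-labelled ones. The summed signal of the 3 genes was 26.5 ± 4.35 CPM per kilobase in the T25B9.1-labelled libraries and 11.1 ± 1.47 in the L4440-labelled ones (SD, n = 3 each). The serine palmitoyltransferase sum was 115.5 ± 5.45 CPM per kilobase in the T25B9.1-labelled libraries and 134 ± 3.57 in the L4440-labelled ones, of which sptl-2 made up 3.75% ± 0.286 in the T25B9.1-labelled libraries and 5.29% ± 0.638 in the L4440-labelled ones. The ceramide synthase sum was 96.3 ± 2.31 CPM per kilobase in the T25B9.1-labelled libraries and 99.6 ± 3.36 in the L4440-labelled ones, and the groups overlapped. These sums are descriptions with no test.

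**Figure D2:**
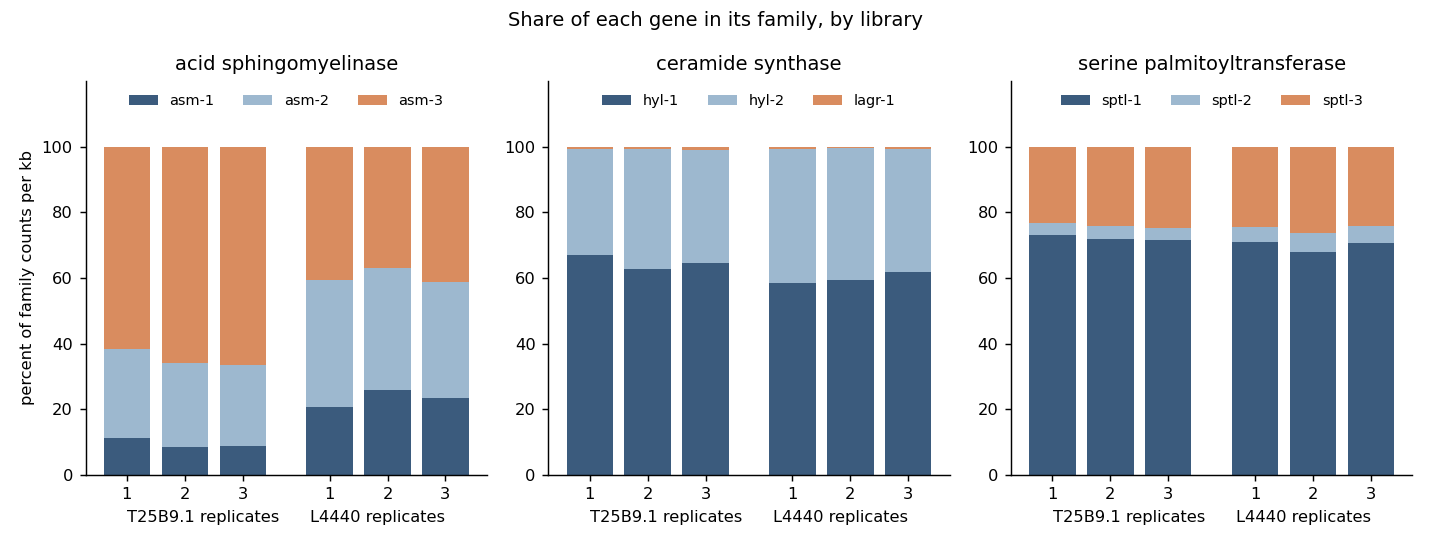
Stacked bars give the percent of each family's counts per kilobase that each gene held, 1 bar per library, with the 3 T25B9.1-labelled libraries left of the 3 L4440-labelled ones. The asm-3 share is 61.8% to 66.6% on the left and 37.0% to 41.3% on the right, while sptl-1 and hyl-1 hold the largest share of their families in every library.

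By level per kilobase, the order of the members differed between groups. In the T25B9.1-labelled libraries the order was sptl-1 (83.4 CPM per kilobase), hyl-1 (62.4), asah-1 (47.3), hyl-2 (33.1), sptl-3 (27.8), asm-3 (17.2), asm-2 (6.79), sptl-2 (4.33), asm-1 (2.48) and lagr-1 (0.787), and no neighbours in this order overlapped. In the L4440-labelled libraries it was sptl-1 (93.5), hyl-1 (59.7), hyl-2 (39.3), sptl-3 (33.4), asah-1 (25.004), sptl-2 (7.10), asm-3 (4.38), asm-2 (4.09), asm-1 (2.60) and lagr-1 (0.654). There only the neighbours asm-3 and asm-2 overlapped. Thus asah-1 stood above hyl-2 and sptl-3 in the T25B9.1-labelled libraries and below both in the L4440-labelled ones, and sptl-2 stood below asm-2 in the first and above asm-3 in the second.

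The rest of the pathway was read from a list of 28 other sphingolipid genes, all of which were tested. Of these 5 were lower in the T25B9.1-labelled libraries and none was higher by edgeR (by DESeq2 the same counts were 5 and 1), where 2.29% of all genes tested were called lower and 1.13% higher. At an unadjusted p under 0.05, 6 of the 28 were lower and 1 higher, against 984 lower and 781 higher of all 13494. A negative log2 fold change was found for 21 of the 28 and a positive one for 7, against 6402 negative and 7092 positive over all genes tested. The 21 include values as close to 0 as -0.0006. The list was chosen with earlier results of these data known, so its counts beside those of all genes are descriptions. The median was -0.10 for the 28 and 0.01 for all genes tested.

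Of the 5 falls, 3 were in the supply of branched fatty acids. Of 4 genes for branched precursors and hydroxylation, 3 were lower, where 2.29% of all genes tested were called lower. This group is part of the list chosen with earlier results known, so the count is a description. The elongase gene elo-6, which makes iso-branched fatty acids, had 166, 136 and 141 CPM in the T25B9.1-labelled libraries, against 214, 233 and 239 CPM in the L4440-labelled ones (log2 fold change -0.63, SE 0.0850, edgeR adjusted p = 0.00209). The elongase gene elo-5, which acts in the same branched-chain pathway, had 112, 103 and 98.8 CPM in the T25B9.1-labelled libraries, against 127, 148 and 152 CPM in the L4440-labelled ones (log2 fold change -0.44, SE 0.0804, edgeR adjusted p = 0.0113). The acyl-CoA synthetase gene acs-1, which activates these fatty acids, had 181, 175 and 164 CPM in the T25B9.1-labelled libraries, against 233, 227 and 234 CPM in the L4440-labelled ones (log2 fold change -0.42, SE 0.0656, edgeR adjusted p = 0.00541). For all 3 genes the groups did not overlap. The fourth gene, fath-1, a fatty acid hydroxylase gene, had a log2 fold change of 0.11 and did not pass. Without T25B9.1 replicate 3 the edgeR adjusted p of elo-5 was 0.0526. Exons of elo-5 overlap those of F41H10.3 on the other strand by 162 bases (17.6%), and F41H10.3 had a log2 fold change of 0.02. Exons of acs-1 overlap those of hpo-26 on the other strand by 19 bases.

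Dihydroceramide desaturases turn dihydroceramide into ceramide. Of the pair measured, ttm-5 fell, with 9.41, 8.87 and 9.22 CPM in the T25B9.1-labelled libraries, against 13.01, 12.8 and 13.3 CPM in the L4440-labelled ones. The replicates lay close together in both groups, and the log2 fold change was -0.51 (SE 0.0908, edgeR adjusted p = 0.0104; 0.0545 without L4440 replicate 3). The other, F33D4.4, had a log2 fold change of -0.07 and did not pass.

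No gene that adds a head group passed. The 12 tested genes of sphingomyelin synthases, glucosylceramide synthases, glycosphingolipid glycosyltransferases and ceramide kinase had log2 fold changes of -0.42 to 0.16, 9 of them negative. Among them bre-4, a glycosyltransferase gene, had 32.0, 32.4 and 36.6 CPM in the T25B9.1-labelled libraries, against 35.9, 40.9 and 37.3 CPM in the L4440-labelled ones, with overlap (log2 fold change -0.18, edgeR adjusted p = 0.400). The lowest and highest fold changes of the 12 came from genes with few counts, 30 to 66 and 8 to 37 per library.

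Among 10 further breakdown genes, only gba-4 passed, and it went the opposite way to asm-3 and asah-1. This glucocerebrosidase gene, for an enzyme that releases ceramide from glucosylceramide, had 29.4, 31.0 and 27.4 CPM in the T25B9.1-labelled libraries, against 43.2, 46.5 and 49.9 CPM in the L4440-labelled ones. The groups did not overlap (log2 fold change -0.67, SE 0.0794, edgeR adjusted p = 0.000947). Its relative gba-2 had 15.4, 15.5 and 27.5 CPM in the T25B9.1-labelled libraries, against 10.5, 13.4 and 11.1 CPM in the L4440-labelled ones. T25B9.1 replicate 3 was well above the rest, and the log2 fold change of 0.75 (SE 0.226) did not pass by edgeR (adjusted p = 0.157), though it did by DESeq2 (adjusted p = 0.00705). Without T25B9.1 replicate 3 its log2 fold change was 0.41. For gba-1 the log2 fold change was -0.18 (SE 0.0763, edgeR adjusted p = 0.352); its exons share 17 bases with those of gba-2 on the other strand. The second acid ceramidase gene, asah-2, had a log2 fold change of -0.05 (95% interval -0.23 to 0.12), and the sphingosine kinase gene sphk-1 and the sphingosine phosphate lyase gene spl-1, of the last steps of breakdown, had -0.06 (-0.22 to 0.10) and -0.03 (-0.15 to 0.10).

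**Figure D3:**
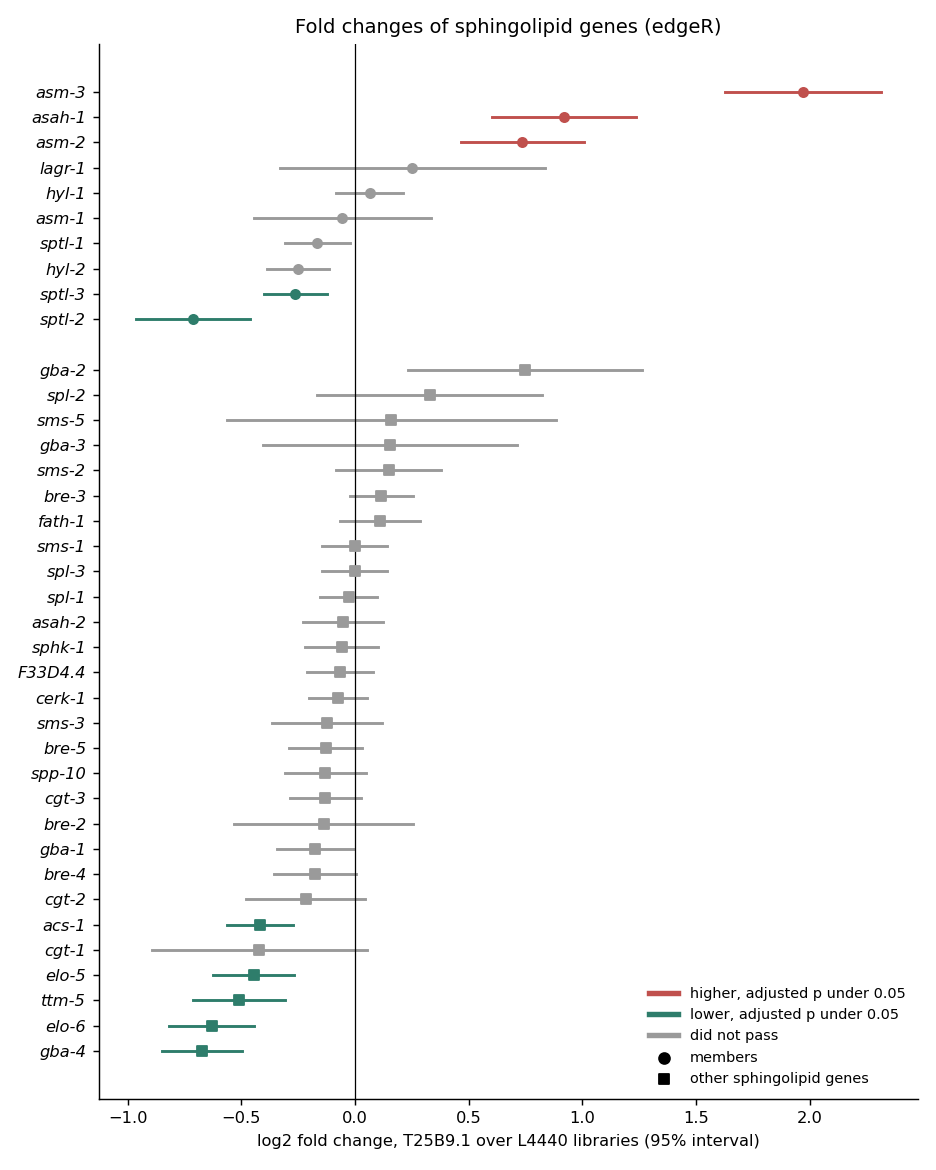
Each line is 1 gene's log2 fold change (T25B9.1-labelled over L4440-labelled libraries, edgeR) with its 95% interval; circles are the 10 members and squares the 28 other sphingolipid genes, coloured by whether they passed. The 3 members that rose, asm-3, asah-1 and asm-2, lie at 1.97, 0.92 and 0.74, and all 5 called genes of the other list lie between -0.67 and -0.42.

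The 10 members are scattered over the genome, 2 on each of chromosomes I, II, IV, V and X. In the wider list, gba-4, elo-5 and elo-6 lie on the same strand of chromosome IV within 43968 bases (5344592 to 5388559), a stretch singled out after the values were seen. It holds 11 tested genes, and these 3 were its only calls.

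The expression profile of asm-3 over the 6 libraries was compared with those of 10287 other genes with a mean of at least 50 counts. Each gene's log2 CPM was centred on its own mean, and likeness was the root mean square difference, for which 0 means the same profile. The nearest was C14C6.5 (0.225), with 88.2, 118.02 and 104.3 CPM in the T25B9.1-labelled libraries, against 24.1, 34.5 and 26.6 CPM in the L4440-labelled ones. Next came scl-2, of the secreted SCP/TAPS family (0.246), the targeted gene T25B9.1 itself (0.266), the short-chain dehydrogenase gene dhs-26 (0.274) and R09E12.9 (0.320). Each of the 5 was higher in the T25B9.1-labelled libraries without overlap. Since the difference between groups dominates all of these profiles, their likeness is a description over 6 libraries in 2 groups.

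**Figure D4:**
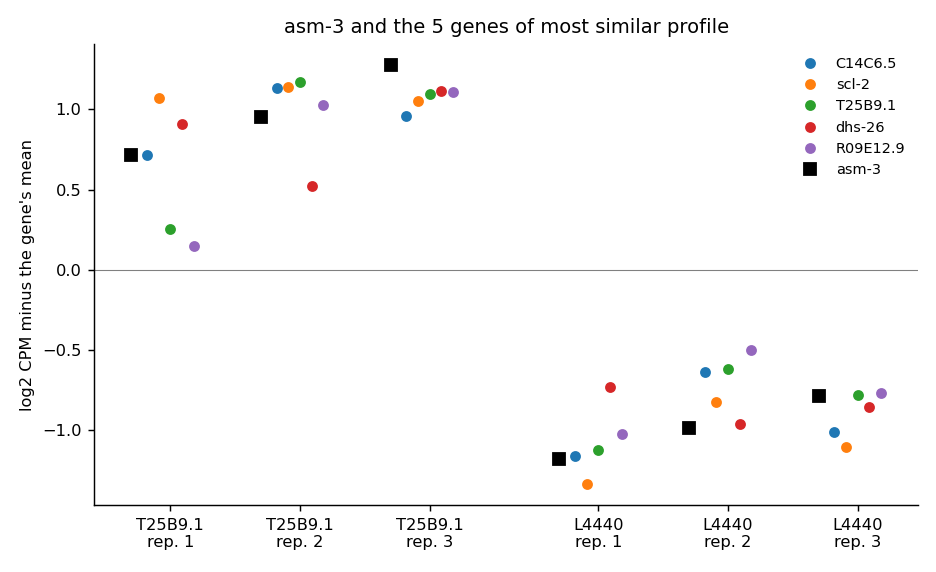
Points give log2 CPM minus the gene's own mean over the 6 libraries, for asm-3 (black squares) and the 5 genes of nearest profile, with T25B9.1-labelled libraries left of L4440-labelled ones. All 6 genes lie above 0 in each T25B9.1-labelled library and below 0 in each L4440-labelled one, and T25B9.1 and R09E12.9 lie lowest in T25B9.1 replicate 1.

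In whole animals, fewer cells of a type and less RNA per cell cannot be told apart, so tissue markers are given beside these results. Summed over 14 germline genes the level was 8585 to 10000 CPM in the T25B9.1-labelled libraries and 8065 to 9326 in the L4440-labelled ones, and none of the 14 passed. Over 10 intestinal genes it was 547 to 626 CPM in the T25B9.1-labelled libraries and 548 to 594 CPM in the L4440-labelled ones. Of these 10, 2 (ifb-2 and pept-1) were called higher and none lower, where 1.13% and 2.29% of all genes tested were. At an unadjusted edgeR p under 0.05, 3 of the 10 were higher and 2 lower. Over 6 genes of adult epidermis the level was 356 to 417 CPM in the T25B9.1-labelled libraries and 427 to 485 in the L4440-labelled ones, without overlap. None of the 5 tested passed, but all 5 had negative log2 fold changes (median -0.33). At an unadjusted edgeR p under 0.05, 3 of the 5 were lower, against 984 of all 13494. Over 12 pharyngeal genes the level was 63.5 to 80.9 CPM in the T25B9.1-labelled libraries and 46.5 to 64.7 in the L4440-labelled ones. None of the 8 tested passed, but 7 had positive log2 fold changes and 1 a negative one (median 0.61). At an unadjusted edgeR p under 0.05, 4 of the 8 were higher, against 781 of all 13494. Over 9 muscle genes the level was 665 to 910 CPM in the T25B9.1-labelled libraries and 678 to 925 CPM in the L4440-labelled ones. Over 10 neuronal genes it was 308 to 346 CPM in the T25B9.1-labelled libraries and 326 to 334 CPM in the L4440-labelled ones, and no gene of either list passed. No marker was at 0 in all libraries. The part of the epidermal, pharyngeal and intestinal differences in the sphingolipid results was not tested.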

How the data were processed

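The deposited values used are counts, whole numbers of reads assigned to each gene. The submitters' processing notes name bcl2fastq 1.8.4, featureCounts 1.4.6-p4, STAR 2.4.1d and build WBcel235. Libraries were made with a kit that does not mark strand; for reads of overlapping genes or of several places, the counting rule was not given in the sources used here. A deposited RPKM table was not used here. Groups follow the perturbation label; another label field and the series title name T25B9.1 RNAi for all 6 libraries. Replicate numbers follow accession order, and no label gives them as pairs. Equal replicate numbers carry consecutive library numbers (15 and 16, 19 and 20, 23 and 24), and whether these are pairs is not known. Between libraries of a group, chi-square per degree of freedom was 6.18 to 39.7, where sampling noise alone gives 1, so none was treated as a library deposited again; this does not show that they are separate biological samples.

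The test was edgeR 4.0.16 (R 4.3.3): quasi-likelihood F-test, robust, TMM factors, filterByExpr with a minimum count of 10, no covariate, Benjamini-Hochberg adjustment over all 13494 genes tested and a threshold of 0.05. SE was taken as the size of the log2 fold change over the root of F. Levels per kilobase use the union of exons in Ensembl release 115 of the same build. Symbols were found for 43693 of 46748 identifiers; 1 of 29 symbols of the wider list, tag-38, was not matched. Alternatives were RLE and upper-quartile factors, 2 other count filters, DESeq2 1.42.0, limma-voom 3.58.1, a block of consecutive library numbers, each library left out, and the longest transcript as length.

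The members, lists and naming rule were chosen with earlier results of these data known, so the share of members called is a description. By that rule the text names all members, the 8 wider genes of smallest p, genes whose models overlap a member's, and the 5 genes nearest asm-3; F41H10.3, hpo-26, fath-1, F33D4.4, asah-2, sphk-1 and spl-1 were added after their values were seen.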

Additional observations from a re-analysis of the deposited data

How the results depend on the processing

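Over 13 alternatives, 2 to 3 members were called higher (2 without L4440 replicate 2) and 1 to 3 lower. With 2 lower in the main setting, the count was 1 by limma-voom, with the replicate block of consecutive library numbers, and without T25B9.1 replicate 1, 2 or 3 or L4440 replicate 2 or 3; in each of these sptl-3 did not pass. Leaving out single libraries gave 1 to 2. Of the wider genes, 4 or 5 were lower, depending on the alternative, and 1 was higher by DESeq2 (gba-2) against 0 otherwise. The log2 fold change of asm-1 ran from -0.2458 to 0.0465 without single libraries and changed sign without T25B9.1 replicate 2 (0.02), L4440 replicate 2 (0.0465) and L4440 replicate 3 (0.01). Neither T25B9.1, the other 9 members nor the 8 wider genes of smallest p changed sign; other named genes were not run under the alternatives. Without single libraries, the log2 difference for asm-3 to asm-1 ran from 1.89 to 2.17, and for asm-3 to asm-2 from 1.18 to 1.30. For sptl-1 to sptl-3 it ran from 0.04 to 0.13. The asm-3 share ran from 63.84% to 66.25% under the T25B9.1 label and from 38.82% to 40.97% under the L4440 label. Dropping 1 of 3 libraries cannot shift a group mean by its full SD, so these ranges are descriptions. The longest transcript equals the exon union for the acid sphingomyelinase genes, so that setting could not change the share. Whether consecutive library numbers pair the samples was not settled (correlations of deviations -0.05, 0.12 and 0.22 for replicates 1, 2 and 3). Replicates 2 matched each other best, as did replicates 3, but for L4440 replicate 1 and T25B9.1 replicate 1 another number matched better. With these numbers as a block, the edgeR adjusted p was smaller for asm-3 (1.84e-06) and asah-1 (0.000103). It was larger for sptl-3 (0.0699) and hyl-2 (0.0872). Low counts (14 to 43) limit what can be said of lagr-1, and 3 libraries a group limit every test.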
